A study of Rattus norvegicus with 12 samples.

Results

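The data described here are the messenger RNA levels of the kainate and delta ionotropic glutamate receptor genes in cultured rat hippocampal neurons whose firing was blocked or raised. The set held 8 gene names, Grik1 to Grik5, Neto1, Neto2 and Grid1, and its probes were those whose gene name in the array files, without the suffix _predicted or _mapped and ignoring case, was one of these names. Under this rule 7 of the 8 names had a probe, with 8 probes of the 41012 on the array, which carry 35716 distinct gene names in all. Neto1 had no probe under its own name. Its probe is listed under the older locus name RGD1566269 and is given separately below.

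Kainate receptors are tetrameric cation channels opened by glutamate. Grik1, Grik2 and Grik3 (GluK1 to GluK3) form working channels on their own, whereas Grik4 and Grik5 (GluK4 and GluK5) bind kainate with higher affinity and need a subunit of the first kind to form a channel. Neto1 and Neto2 are single-pass membrane proteins that join the receptor and change its gating. Grid1 encodes a delta receptor (GluD1), which is related in sequence but works mainly as a synaptic adhesion partner of neurexins through secreted cerebellins. In the hippocampus kainate receptors are known from mossy fiber synapses, from interneurons and from presynaptic terminals.

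The cultures were dissociated hippocampal neurons from E18.5 Sprague-Dawley rat embryos grown at high density. At 10 to 13 days in vitro they were kept for 48 h in vehicle (CTL), in tetrodotoxin (TTX, 0.5 to 1 μM), which blocks voltage-gated sodium channels and so action potentials, or in bicuculline (BC, 20 μM), an antagonist of GABA-A receptors that raises network firing. The labels give the vehicle as 0.1% DMSO, whereas the methods of the study name water. No DMSO content is given for the TTX and BC samples. Whether the comparisons with CTL also differ in DMSO is therefore not known. Each group had 4 RNA samples, each on 1 single-color Agilent array, and each of the 4 slides carried 1 TTX, 1 CTL and 1 BC array. Neither the labels nor the methods state that the RNA samples are from independent cultures. The tests therefore rest on the variation among the samples as they are, which may be only technical.

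Signals are given as log2 of the background-subtracted spot intensity after quantile normalization over the 12 arrays, and differences are on that log2 scale. From 74.1 to 78.1% of the probes of an array were well above background by the scanner software's own criterion. All 8 probes of the set were well above background on 12 of 12 arrays and none was saturated. The labelled cell type was checked through Slc17a7 (vesicular glutamate transporter), Rbfox3 (neuronal nuclei), Gfap (astrocytes) and Gad1 and Gad2 (GABA synthesis), all of which were well above background on all 12 arrays. Of 9 activity-regulated genes, 4 fell in TTX against CTL, among them Bdnf by −1.45, and 4 rose in BC against CTL, among them Npas4 by 1.23. These are mixed cultures, in which fewer cells of a type and less RNA per cell cannot be told apart.

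The probe sequences are shown for the genes on which the results turn and for which the 60 bases leave at least 1 reading frame open. The capitals mark the longest run of bases that each probe has in common, on either strand, with any probe of another gene on the array.
Grik4: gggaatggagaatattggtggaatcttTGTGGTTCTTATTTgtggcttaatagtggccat
Neto2, second probe: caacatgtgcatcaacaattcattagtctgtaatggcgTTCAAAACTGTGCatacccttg
Grik1: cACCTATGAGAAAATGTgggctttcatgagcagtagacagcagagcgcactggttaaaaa
The run was 14 bases for Grik4, 13 for the second Neto2 probe and 16 for Grik1. Among the 28 pairs of probes of the set, no pair had more than 8 bases in a row in common. By the coordinates in the array files, on rat build rn4, the Grik4 probe lies at chr8:45514232-45514291 on the minus strand and the Grik1 probe at chr11:27734832-27734891 on the minus strand. The second Neto2 probe lies at chr19:22765176-22765235 on the plus strand, and the brightest Neto2 probe, which stands for the gene below, lies 3048 bases further along the same strand. The exons they fall in were not determined here. The brightest Neto2 probe and the Grik2 probe had a stop codon in every reading frame.

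The comparisons asked whether the genes differed after firing was blocked (TTX against CTL), after it was raised (BC against CTL) and between these opposite states (TTX against BC). Calls required an FDR (Benjamini-Hochberg, over all probes) under 0.05 together with a change of 1.5-fold or more up or down, from a limma fit to all 12 arrays. Grik4 was the gene of the set with the largest difference in TTX against CTL and in TTX against BC, and it was called higher in TTX than in BC. Neto2 and Grik2 were also higher in TTX than in BC with an FDR under 0.05, but by less than 1.5-fold. Grik1, Grik3, Grik5 and Grid1 passed neither threshold in any comparison.

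**Figure D1:**
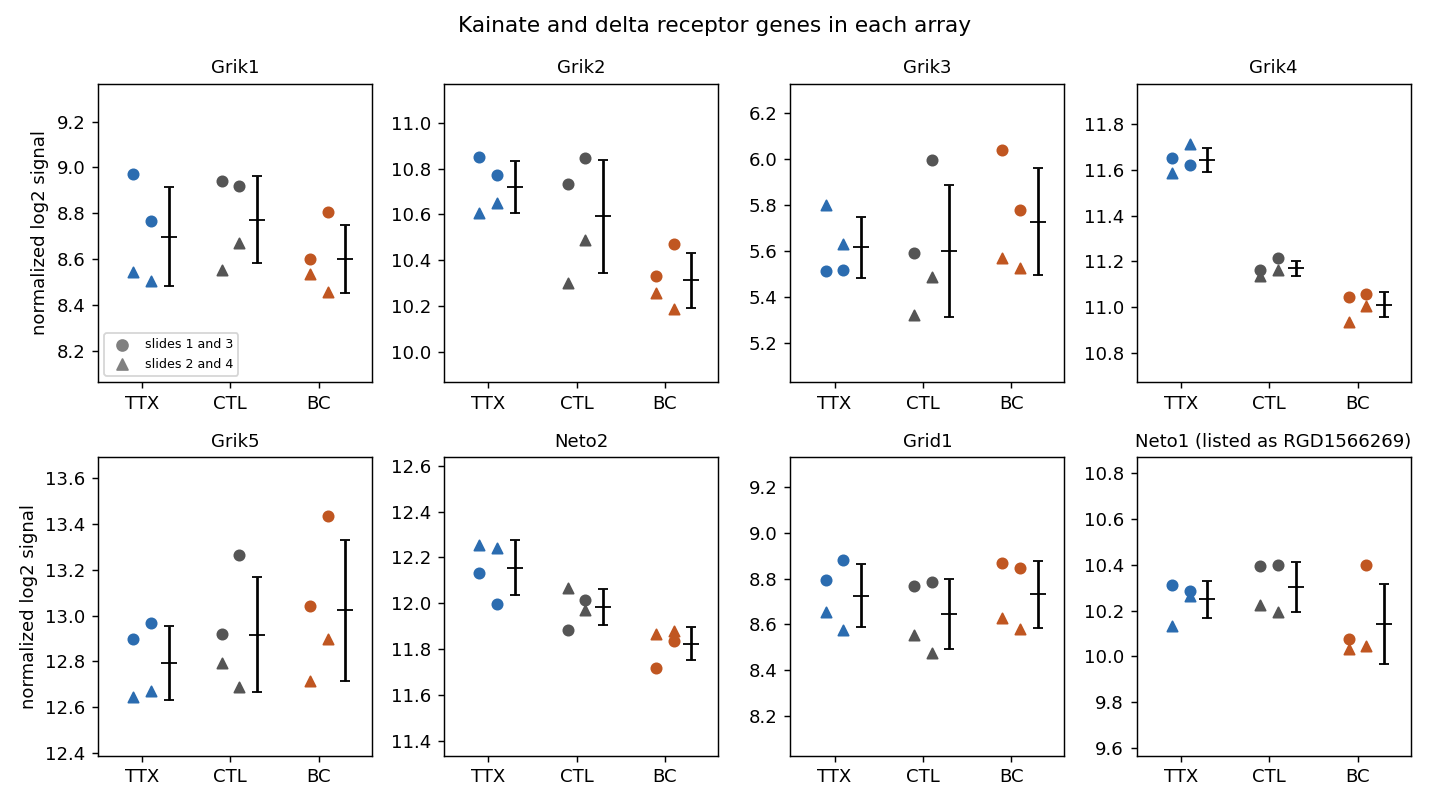
Normalized log2 signal of each gene on each of the 12 arrays, by group; every panel spans the same log2 range. Circles are arrays of slides 1 and 3, triangles those of slides 2 and 4, and the bar beside them is the mean ± SD (n = 4). The groups of Grik4 are fully separated, with TTX highest, whereas those of Grik1, Grik3, Grik5 and Grid1 overlap.

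In TTX against CTL, 0 of the 7 genes were called, where 4.18% of all genes tested were called. By limma 2 of the 7, Grik4 and Neto2, had an unadjusted p under 0.05, and 1, Grik4, was higher with an FDR under 0.05, where 4.32% of all genes were. The groups did not overlap for 1 gene that was higher, against 7.48% of all genes. The median difference of the 7 was 0.08, beside 0.01 over all genes, with 5 higher and 2 lower. In BC against CTL, 0 of the 7 were called, where 3.6% of all genes were, none had an FDR under 0.05 (8.09% of all genes did) and 2, Grik2 and Grik4, had an unadjusted p under 0.05. BC lay fully below CTL for 2 genes, Grik4 and Neto2, against 6.07% of all genes. The median difference was −0.16, beside −0.01 over all genes.

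In TTX against BC, 1 of the 7 genes was called and was higher, where 10.9% of all genes were called and 4.68% were called higher. With 7 genes, 1 call says nothing particular about the set. With no fold threshold 3 were past the FDR, all higher in TTX, where 11.3% of all genes were past it in that direction. For the same 3 genes the TTX arrays all lay above the BC arrays, against 12.6% of all genes. The median difference was 0.10, beside 0.02 over all genes. The 3 comparisons have arrays in common, so their counts are not independent of each other.

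**Figure D2:**
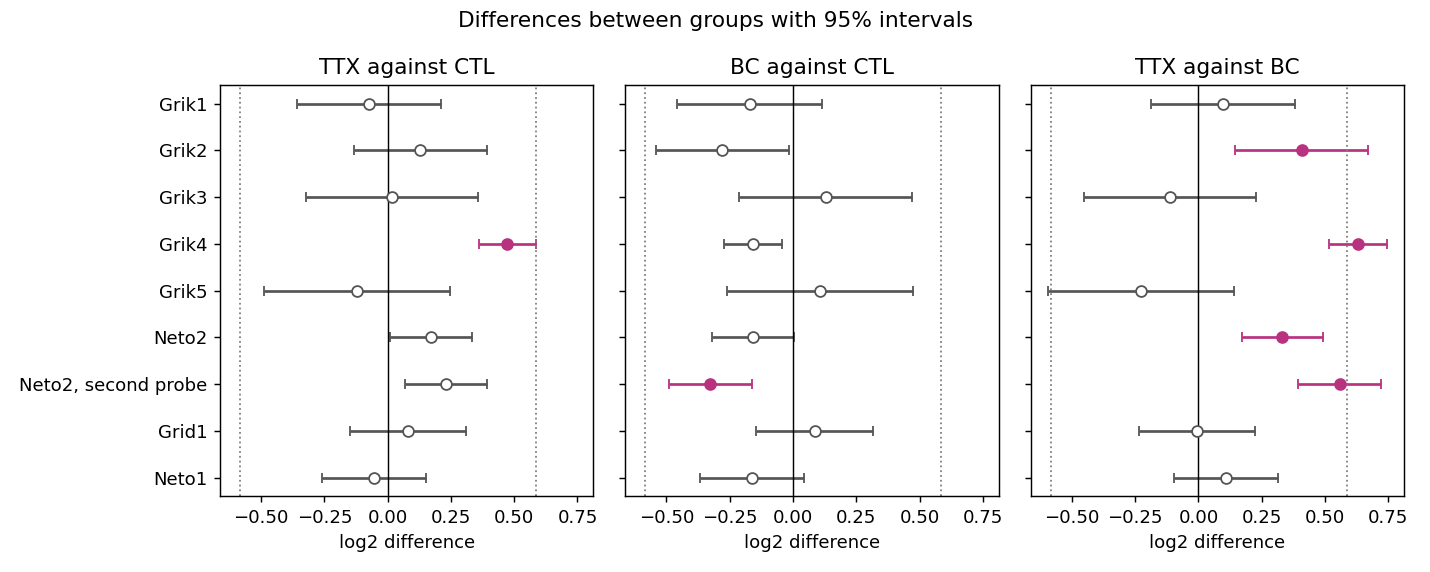
Log2 difference of each gene in the 3 comparisons, with 95% confidence intervals from limma (4 arrays per group); Neto1 is the probe listed as RGD1566269. Filled points have an FDR under 0.05, and the dotted lines mark the fold threshold of 1.5 in either direction. Of the 7 genes, 3 are filled in TTX against BC, and the Grik4 point alone lies past the dotted line.

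Among the subunits that form channels on their own, Grik2 showed the largest difference. Its signal was 10.77, 10.65, 10.85 and 10.61 in TTX on slides 1 to 4, 10.73, 10.30, 10.85 and 10.49 in CTL and 10.33, 10.19, 10.47 and 10.26 in BC. All TTX arrays lay above all BC arrays, and the CTL arrays overlapped both. TTX exceeded BC by 0.41 (SE 0.119), 1.33-fold, with an adjusted p of 0.0289 by limma. The difference within a slide was 0.35 to 0.46, and with slide as a block the adjusted p was 0.00224. It was 0.0573 with the arrays of a group averaged over a pair of slides, and 0.0578 to 0.0799 without BC replicate 1, 2 or 3 or without TTX replicate 1 or 2. TTX differed from CTL by 0.13 (limma adjusted p = 0.622), and BC was below CTL by −0.28 (SE 0.119, adjusted p = 0.222). For BC against CTL the slide block gave an adjusted p of 0.0267 and averaging the arrays of a group on a pair of slides 0.197. In BC against CTL that averaging called 0 of 35711 genes, where the main fit called 1287, so it cannot decide about single genes there.

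Grik1 and Grik3 did not differ between the groups beyond the spread of the arrays. The Grik1 signal ranged from 8.51 to 8.97 in TTX, from 8.55 to 8.94 in CTL and from 8.46 to 8.81 in BC. The 95% interval of TTX minus CTL was −0.36 to 0.21, that of BC minus CTL −0.46 to 0.11 and that of TTX minus BC −0.19 to 0.38. Grik3 was the dimmest gene of the set, with processed intensities of 39.0 to 65.9 on the 12 arrays and log2 signals of 5.32 to 6.04. Its interval was −0.32 to 0.36 for TTX minus CTL, −0.21 to 0.47 for BC minus CTL and −0.45 to 0.23 for TTX minus BC. A change of 1.5-fold lies outside all of these 6 intervals.

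A second probe for Grik1 stands in the array files under an Ensembl transcript name and does not fall under the rule. It lies 13180 bases from the Grik1 probe on rn4. It was dim, being well above background on 3 CTL arrays, on 2 BC arrays and on no TTX array. Its mean signal was 3.78 in CTL and 3.08 in TTX, a difference of −0.70 (limma adjusted p = 0.0453). With TTX set at the lowest signal that counts as well above background, CTL was 1.14-fold higher, which was not tested. The CTL mean takes in replicate 2, which was not well above background. Over 23 alternative settings the difference was −0.80 to −0.08, and 7 kept an FDR under 0.05. The brighter Grik1 probe differed between the same groups by −0.07 (SE 0.129, adjusted p = 0.848). The difference between the probes was not tested.

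Of the high-affinity subunits, Grik4 separated all 3 groups. Its signal was 11.62, 11.71, 11.65 and 11.59 in TTX on slides 1 to 4. It was 11.16, 11.14, 11.22 and 11.16 in CTL and 11.04, 11.01, 11.06 and 10.94 in BC. Each TTX array lay above each CTL array, and each CTL array above each BC array.

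TTX exceeded CTL in Grik4 by 0.47 (SE 0.0516, 95% interval 0.36 to 0.59), 1.39-fold, with a limma adjusted p of 0.000287. This was past the FDR and short of the fold threshold, and averaging over slide pairs gave an adjusted p of 0.0629. TTX exceeded BC by 0.63 (SE 0.0516, 95% interval 0.52 to 0.75), 1.55-fold, with an adjusted p of 9.5e-06, and the interval takes in differences under 1.5-fold. BC was below CTL by −0.16 (SE 0.0516, adjusted p = 0.0988). With slide as a block the adjusted p was 0.0454, but 0.238 with arrays averaged over slide pairs, a setting that called 0 of 35711 genes in BC against CTL. Within the slides the difference was 0.42 to 0.58 for TTX against CTL, −0.22 to −0.12 for BC against CTL and 0.58 to 0.71 for TTX against BC. Grik4 had the smallest spread within groups of the genes in the set, with an SD of 0.03 in CTL and 0.05 in both TTX and BC (n = 4).

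Grik5, the other high-affinity subunit, did not share this pattern. Its signal was 12.97, 12.67, 12.90 and 12.64 in TTX on slides 1 to 4, 12.92, 12.80, 13.27 and 12.69 in CTL and 13.04, 12.90, 13.44 and 12.72 in BC. The groups overlapped throughout, and on each slide the BC array was the brightest of the 3. TTX minus BC was −0.23 (95% interval −0.60 to 0.14, limma adjusted p = 0.405), TTX minus CTL was −0.12 (−0.49 to 0.25) and BC minus CTL was 0.11 (−0.26 to 0.47).

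The auxiliary subunit Neto2 was measured by 2 probes, which ordered the groups alike, with TTX highest and BC lowest on each of the 4 slides. The brightest probe read 12.00, 12.24, 12.13 and 12.25 in TTX on slides 1 to 4, 11.88, 12.07, 12.02 and 11.97 in CTL and 11.72, 11.88, 11.84 and 11.87 in BC. The second probe read 10.07, 10.15, 9.99 and 10.19 in TTX, 9.85, 10.02, 9.87 and 9.73 in CTL and 9.45, 9.56, 9.55 and 9.60 in BC. On both probes all BC arrays lay below all CTL arrays and all TTX arrays, whereas TTX and CTL overlapped.

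By the brightest Neto2 probe TTX exceeded BC by 0.33 (SE 0.0727), 1.26-fold, with a limma adjusted p of 0.00679, and by the second by 0.56 (SE 0.0737), 1.47-fold, with an adjusted p of 0.000274. The within-slide differences were 0.28 to 0.39 on the brightest probe and 0.44 to 0.62 on the second. BC against CTL was −0.16 (adjusted p = 0.266) on the brightest probe and −0.33 (adjusted p = 0.0202) on the second. The latter value passed the FDR and not the fold threshold, and its adjusted p was 0.0508 without CTL replicate 2 and 0.0636 without BC replicate 3. Over 24 alternative settings 19 kept this value at an FDR under 0.05, and the highest adjusted p was 0.117. TTX against CTL was 0.17 (adjusted p = 0.193) and 0.23 (adjusted p = 0.0806). With slide as a block the brightest probe reached an adjusted p of 0.0288 in TTX against CTL and 0.0429 in BC against CTL, still short of the fold threshold. With arrays averaged over slide pairs these were 0.204 and 0.251, the latter in a comparison where that setting called 0 of 35711 genes.

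**Figure D3:**
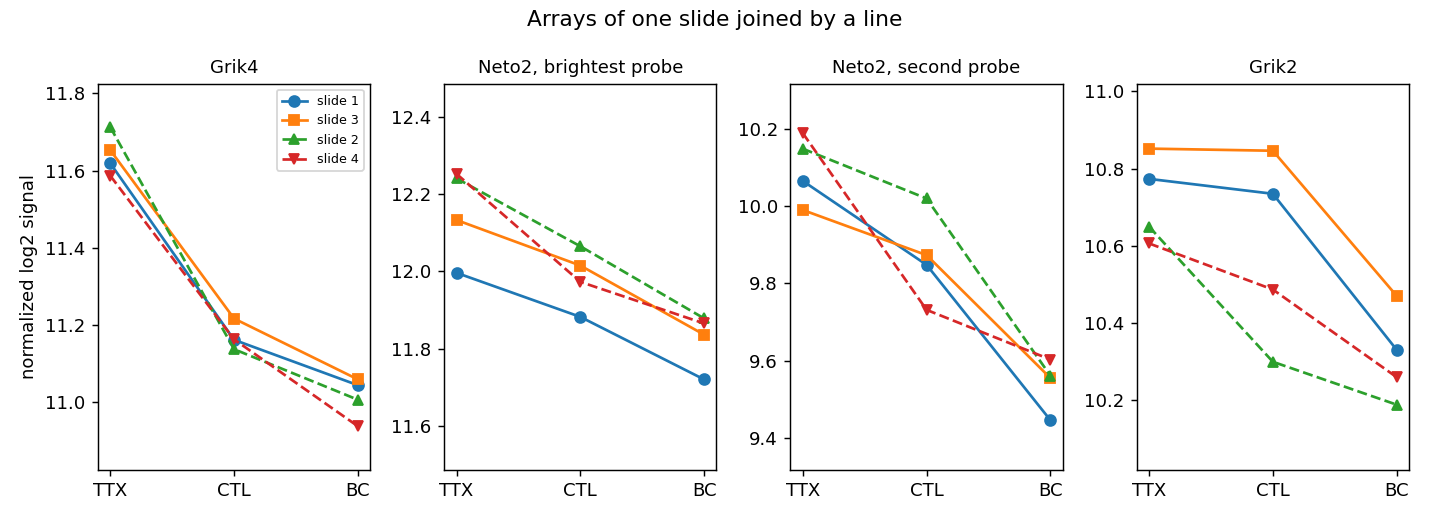
Normalized log2 signal of Grik4, of both Neto2 probes and of Grik2 in TTX, CTL and BC, with the 3 arrays of a slide joined by a line (4 slides, 1 array per group on each; all panels span the same log2 range). On all 4 slides each probe falls in the order TTX, CTL, BC, and the Grik4 step from TTX to CTL is 0.42 to 0.58.

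The probe listed as RGD1566269, an older name of Neto1, did not follow Neto2. Its signal ranged from 10.13 to 10.31 in TTX, from 10.19 to 10.40 in CTL and from 10.03 to 10.40 in BC, and the groups overlapped. TTX minus CTL was −0.05 (95% interval −0.26 to 0.15), BC minus CTL −0.16 (−0.37 to 0.04) and TTX minus BC 0.11 (−0.10 to 0.31), with limma adjusted p-values of 0.844, 0.401 and 0.482.

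The delta receptor gene Grid1 differed least of the set between TTX and BC. Its signal ranged from 8.57 to 8.88 in TTX, from 8.48 to 8.78 in CTL and from 8.58 to 8.87 in BC. The intervals were −0.15 to 0.31 for TTX minus CTL, −0.14 to 0.31 for BC minus CTL and −0.23 to 0.22 for TTX minus BC.

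Several of these genes varied with the slides. Grid1, Grik1, Grik2 and Grik5 were brighter on slides 1 and 3 than on slides 2 and 4 in all 3 groups, by 0.22 to 0.26 for Grid1, 0.21 to 0.34 for Grik1, 0.18 to 0.40 for Grik2 and 0.27 to 0.43 for Grik5. The same difference was −0.01 to 0.08 for Grik4 and −0.18 to −0.07 for the brightest Neto2 probe. Each group had 2 arrays on either pair of slides. For Grid1, Grik1 and Grik5 this difference was larger than any of their differences between groups.

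Markers of cell types moved with the groups. Of 16 markers of GABA interneurons, 10 fell and 1 rose in TTX against CTL, with Gad1 at −1.56 and Sst at −1.69, and 2 rose and 1 fell in BC. Their summed linear signal was 201605 to 221536 in TTX, 388833 to 445069 in CTL and 489463 to 583733 in BC. Such a sum gives most weight to the brightest markers. The median log2 difference of the 16 from CTL was −0.81 in TTX and 0.04 in BC. Of 9 markers of glutamatergic neurons, 2 rose in TTX against CTL, Slc17a6 by 0.59 and Neurod2 by 0.75, and 2 fell in BC, Neurod2 by −0.72 and Prox1 by −0.72. The sums were 54317 to 60825 in TTX, 36564 to 45614 in CTL and 26792 to 32678 in BC, which is also the order of Grik4, Neto2 and Grik2.

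Of 10 astrocyte markers none was called by limma in any comparison (an unadjusted p under 0.05 was seen for 1 in TTX and 0 in BC, each against CTL, and for 2 in TTX against BC), and their sums were 77475 to 112470 in TTX, 70753 to 90591 in CTL and 71352 to 85976 in BC. Of 9 oligodendrocyte lineage markers 1 rose and 1, Pdgfra, fell by −0.79 in TTX against CTL, with sums of 44128 to 70967, 32405 to 51768 and 38249 to 46907 in TTX, CTL and BC. Of 8 microglial markers 4 were well above background on all 12 arrays and 2, Aif1 and Itgam, on none, with sums of 421 to 514, 520 to 578 and 416 to 562 in the same order. None was called by limma against CTL (2 in TTX and 1 in BC had an unadjusted p under 0.05), and P2ry12 was called higher in TTX than in BC by 0.89 (limma adjusted p = 0.00579). Of 8 markers of vascular cells and fibroblasts 5 were well above background on all 12 arrays and 1, Pecam1, on none, with sums of 1198 to 1651, 1087 to 1500 and 1276 to 6794. Against CTL limma called 0 in TTX (1 at an unadjusted p under 0.05) and 1 in BC, Cldn5, which was called higher, and in TTX against BC Cldn5 and Vwf were called lower. Pecam1 was past the thresholds in TTX against BC too, at signals not well above background in either group. Cldn5 was well above background on 6 of the 12 arrays and Vwf on 8. The part of these markers in the differences of Grik4, Neto2 and Grik2 was not tested.

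The genes around the receptors were described from lists of genes chosen as their partners. Of 14 kainate receptor partners 12 were measured, among them scaffolds (Dlg4, Pick1, Grip1), adaptors for degradation (Klhl17, Klhl24) and the cadherin and catenin Cdh2 and Ctnnb1. None was called by limma in any comparison, with 3 at an unadjusted p under 0.05 in TTX against CTL, 2 in BC against CTL and 2 in TTX against BC. Grip1, a scaffold also of AMPA receptors that is named here after its values were seen, was higher in BC than in CTL by 0.53 (SE 0.109, adjusted p = 0.0126), short of the fold threshold. The median differences of the list were 0.05, 0.02 and −0.08.

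Of 10 delta receptor partners 7 were measured. C1ql1, a secreted C1q-like protein, was placed on this list, but whether it binds delta receptors was not examined here. C1ql1 fell by −0.73 (SE 0.136) in TTX against CTL and rose by 1.26 (SE 0.136) in BC against CTL. The difference of TTX against BC was −1.99 (limma adjusted p = 2.76e-06). Cbln2, a cerebellin that bridges neurexins and delta receptors, fell by −0.85 (SE 0.159) in TTX against CTL and differed by −0.01 in BC. The list thus had 2 of 7 called in TTX against CTL, 1 of 7 in BC against CTL and 2 of 7 in TTX against BC. C1ql1 was among the called genes each time. The median differences were −0.14, −0.01 and −0.24.

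Of 11 genes of the AMPA and NMDA receptor pores, 1 was called in each comparison with CTL and 3 in TTX against BC. Grin3b fell by −1.13 in TTX and Grin3a by −0.63 in BC, both subunits of glycine-gated NMDA receptors. Each was also below CTL in the other treatment, past the FDR and short of the fold threshold. Grin3a was at −0.41 in TTX (limma adjusted p = 0.0271) and Grin3b at −0.44 in BC (adjusted p = 0.0475). In TTX against BC, Grin2a was higher by 0.86, and Grin1 and Grin3b were lower by −0.67 and −0.70. None of the AMPA receptor genes Gria1 to Gria4 was called by its brightest probe. In TTX against BC, Gria4 and Gria2 were higher by 0.48 and 0.25 (limma adjusted p = 0.00676 and 0.0171). Both were short of the fold threshold. The study lists GRIA4 among its activity-regulated transcripts and reports by QPCR a fall in TTX and a rise in BC. The brightest Gria4 probe differed by 0.17 in TTX and −0.31 in BC against CTL, signs opposite to those of the QPCR. Neither difference passed the FDR (limma adjusted p = 0.429 and 0.108). Any other Gria4 probe is not reported here, so these values do not decide about the transcript that the study lists.

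**Figure D4:**
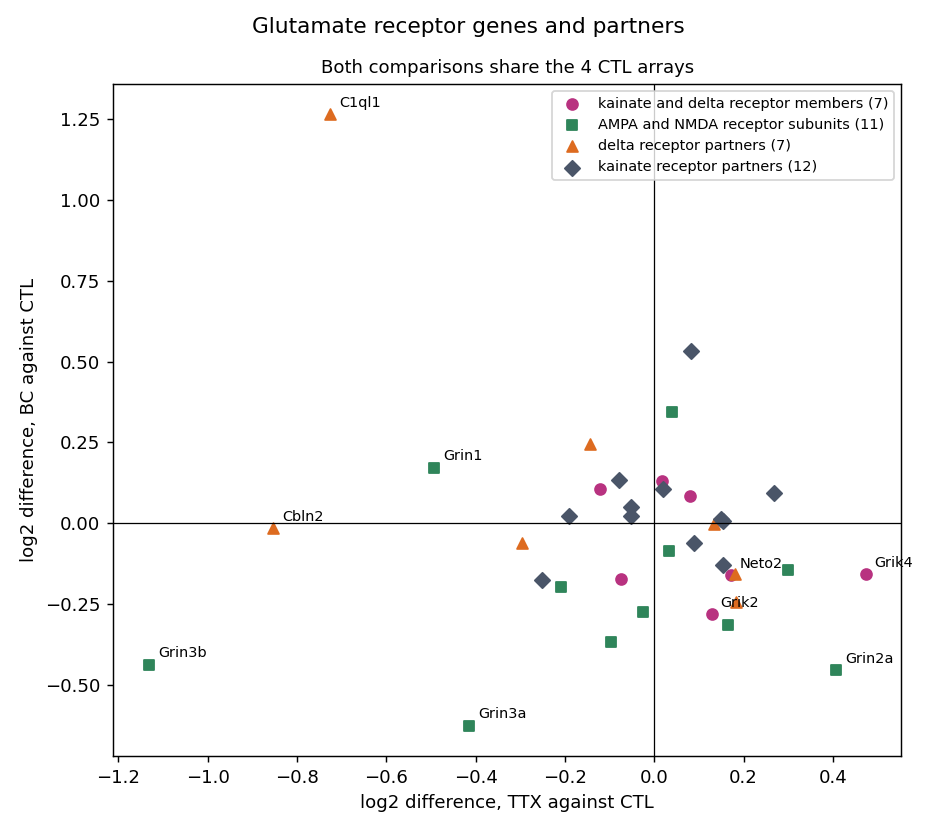
Log2 difference of TTX against CTL (horizontal) and of BC against CTL (vertical) for the 7 genes of the set and for 3 lists of related genes, 1 point per gene; both axes use the same 4 CTL arrays. C1ql1 and Grin3b lie farthest from the origin, and the kainate and delta receptor genes lie near it, with Grik4 farthest to the right among them.

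The genes whose signal ran most like that of Grik4 were taken from 11454 named genes well above background on all 12 arrays. Over the 12 arrays, which fall into the 3 groups and were normalized together, the highest Pearson r were 0.986 for Rnf182, 0.982 for Mcm6 and 0.981 for Sema3c. These r are descriptions only. In TTX against CTL these genes differed by 0.73, 0.48 and 1.82, and in BC against CTL by −0.20, −0.23 and −0.67.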

How the data were processed

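RNA from cultures treated for 48 h was hybridized to 12 one-color Agilent arrays, 4 per group. The authors deposited scanner intensities from Feature Extraction 9.5.1.1, which that software had corrected on each array for background and spatial trend. They also deposited log2 values normalized between arrays, used here as an alternative, in which the column of BC replicate 2 has 1131 empty values. Groups came from the sample labels.

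Processed signals, without spots marked as outliers, were quantile-normalized on the log2 scale and fitted with limma 3.58.1 in R 4.3.3 with 1 mean per group over all arrays and no filter on dim probes. p-values were adjusted over all probes. The brightest probe stood for its gene, and probes outside the set were named through RefSeq's table for GRCr8. Arrays and sequences were read with Python 3.11.15 and pandas 2.3.3, with plots made in matplotlib 3.10.9. The fit was tested on simulated data. The number of arrays limits the precision.

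The members and lists were chosen with earlier results of these data known. All members, up to 4 called genes per list and comparison, and the 3 nearest patterns to a called member are named. Grip1, the AMPA receptor genes and the members of a list given with no call are named outside that rule. Values of a few listed genes are not reported here. Cell type markers were summed on the linear scale of the normalized signal.

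With group means removed, arrays with the same replicate number correlated at 0.28 to 0.38 between CTL and TTX, whereas BC arrays correlated at −0.35 to −0.24 with the CTL array and at −0.38 to −0.28 with the TTX array of their number. Arrays of different groups correlated at 0.20 to 0.41 on the same pair of slides and at −0.39 to −0.20 otherwise, and the numbers of CTL and TTX follow those pairs. Alternatives were other background corrections and normalizations, a filter on dim probes, slide, slide pair or replicate as a block, averaging over slide pairs, other variance and probe rules, no fold threshold and leaving out each array. Counting Neto1 through its older name was added after seeing the data.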

Additional observations from a re-analysis of the deposited data

Results flagged for a closer look

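One of the 33 gene and group combinations checked stood out for a single array. The Neto1 probe, listed as RGD1566269, read 10.40 in BC replicate 4 and 10.03, 10.05 and 10.08 in the other BC arrays, so that the gap of the highest array was 0.883 of the range of the group, above Dixon's 95% critical value for 4 samples. Such a test marks about 1 in 20 groups by chance.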

How the results depend on the processing

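The number of called genes was 0 in TTX against CTL, 0 in BC against CTL and 1 (Grik4) in TTX against BC, and leaving out any 1 array gave 0, 0 and 1 again. With no fold threshold the counts were 1, 0 and 3. With the deposited log2 values the count in TTX against BC was 0, since Grik4 differed by 0.58, just short of 1.5-fold. With the replicate number as a block the counts were 0, 0 and 1, and with slide as a block also 0, 0 and 1. Under the replicate block the adjusted p of Grik2 in TTX against BC was 0.0535 and that of the second Neto2 probe in BC against CTL 0.0753, while Grik4 had 0.00515 in TTX against CTL. Over 25 alternatives the Grik4 difference was 0.45 to 0.49 in TTX against CTL, with an FDR under 0.05 in 24, the exception being the arrays averaged over slide pairs (adjusted p = 0.0629). In TTX against BC it was 0.58 to 0.65, with an FDR under 0.05 in all 25, and that of Neto2 was 0.30 to 0.44, also in all 25. That of Grik2 was 0.36 to 0.46, with an FDR under 0.05 in 18.

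Sign changes occurred in 15 gene and setting combinations, all of differences that passed no test. Grik3 in TTX against CTL was −0.0036 with normexp correction, −0.0093 with the median signal, −0.0089 with the deposited values and −0.0759 to 0.150 with 1 array left out. Grid1 in TTX against BC was 0.0047, 0.0198 and 0.0013 under the same 3 settings, 0.0135 with the 75th percentile and −0.0561 to 0.0455 with 1 array left out. Grik5 in BC against CTL was −0.0320 to 0.222 with 1 array left out, below 0 only without BC replicate 4.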
